A study of Mus musculus with 4 samples.

Results

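Mouse macrophages carry a set of surface receptors of which many restrain signalling. The 10 described here include 4 sialic acid-binding lectins of the Siglec family: Siglece, Siglec1, Siglecf and Cd33. The 6 other receptors are Sirpa, Pirb, Lilrb4a, Lair1, Cd200r1 and Cd300a. All 10 were taken by gene symbol from the 55401 genes of the deposited expression table, and all 10 were found. RNA was sequenced from 2 knockout libraries (KO, numbered 1 and 3), from mice with LysM-cre and a floxed Mettl3 gene (LysM-cre, Mettl3fl/fl), and from 2 control libraries (WT, numbered 1 and 3), from Mettl3fl/fl mice for which the labels name no Cre driver. Both groups carry the floxed gene, so the controls are wild type in name and not in allele. All libraries are from bone marrow-derived macrophages of C57BL/6 mice of 8 weeks, grown with M-CSF and kept for 24 h in co-culture with MC38, a mouse colon carcinoma line. LysM-cre drives recombination in myeloid cells, and Mettl3 encodes the enzyme that writes N6-methyladenosine (m6A) on mRNA.

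Many inhibitory receptors carry immunoreceptor tyrosine-based inhibitory motifs (ITIMs) in their cytoplasmic tails. Src-family kinases such as Lyn phosphorylate these tyrosines, and the phosphatases SHP-1 (Ptpn6), SHP-2 (Ptpn11) and SHIP-1 (Inpp5d) then bind and dampen activating signals. Siglecs read sialic acid on glycans of the same or of neighbouring cells, while the other receptors read proteins or lipids: CD47 for SIRPα, collagen for LAIR1, CD200 for CD200R1, MHC class I for PIR-B and phospholipids of dying cells for CD300a. Siglec1, also called sialoadhesin or CD169, lacks an ITIM, and CD200R1 signals through adaptor proteins of the Dok family instead of an ITIM.

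Estimated counts summed to 62563556 and 79209870 in KO1 and KO3 and 55100415 and 61075754 in WT1 and WT3. Levels are given as CPM, counts scaled to a common library size, unless FPKM, which is also scaled for gene length, is named. Library number coincided with the sex pattern of the cells: Xist stood at 1161 and 1351 CPM in KO3 and WT3, against 0.624 and 0.589 CPM in KO1 and WT1. For the receptors the pooled value is followed by the differences inside number 1 and inside number 3, except for Siglecf in number 3, where WT3 had 4 counts. Number, sex and any other property shared by a number cannot be told apart. Mettl3 itself stood at 13.9 and 19.6 CPM in KO1 and KO3 and at 18.3 and 23.2 CPM in WT1 and WT3, so the groups overlapped. Which exons were removed is not stated in the labels, so a count over the whole gene does not check the deletion.

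A list of 10 macrophage markers summed to 41910 and 43780 CPM in KO1 and KO3 and to 39980 and 55250 CPM in WT1 and WT3, with 4 of the 10 above 0 and 6 below in log2 fold change (KO over WT) and a median of -0.08. Most of the sum was Lyz2, at 25450 and 25790 CPM in KO1 and KO3 and at 22070 and 40810 CPM in WT1 and WT3, with WT3 highest. Adgre1 stood at 6087 and 7501 CPM in KO1 and KO3 and at 4847 and 6418 CPM in WT1 and WT3. Without WT1 the median of the 10 turned to 0.300. Markers of other cells were mostly low. The summed level of 6 eosinophil markers was 7.45 and 21.7 CPM in the knockouts and 8.08 and 7.65 CPM in the controls, almost all of it from Ccr3, with Il5ra, Ear1 and Ear6 at 0 in every library. The summed level of 10 neutrophil markers was 19.6 and 26.8 CPM in the knockouts and 14.8 and 18.7 CPM in the controls, almost all S100a8, with Ly6g at 0, and that of 6 B cell markers was 34.1 and 36.9 against 24.7 and 21.1 CPM, mostly Cd22. A list of 8 dendritic cell markers summed to 138 and 208 against 90.6 and 150.2 CPM, almost all Bst2. Every other marker of that list stood at or below 2.89 CPM (Ccr7 in WT1), so the sum describes Bst2 and not the list. The sums of 5 mast cell and basophil markers lay between 1.049 and 2.73 CPM, and those of 6 T and NK cell markers between 0.147 and 0.496 CPM. Fibroblast markers (8) summed to 336 and 503 CPM in KO1 and KO3 and to 427 and 812 CPM in WT1 and WT3, and 10 epithelial markers, set for MC38, to 1.52 and 0.973 against 0.460 and 1.02 CPM, with Epcam at 0. All 8 fibroblast markers had a log2 fold change below 0 (KO over WT), with a median of -0.56 that turned to 0.140 without WT3 and was -0.928 without WT1, -0.247 without KO1 and -0.817 without KO3. The part of these other cell types in the values that follow was not tested. Whether macrophages were separated from MC38 before RNA extraction is not stated in the labels. In bulk RNA, fewer cells of a type and less RNA per cell cannot be told apart.

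The promoters of 6 of the 10 receptors (Siglece, Siglecf, Cd33, Pirb, Lair1 and Cd300a) were held in the RefSeq sequence table used here (GRCm38.p6; 250 bases before to 50 after the start of transcription), so those of Siglec1, Sirpa, Lilrb4a and Cd200r1 were not scanned here. All 6 windows had at least 1 copy of GAGGAA, the core recognised by the macrophage factor PU.1 and other ETS proteins, read on either strand, against 28.3% of 32851 windows of the same length. None of the 6 held the consensus of the interferon-stimulated response element, found on either strand in 3.44% of all windows, or the STAT pattern TTCNNNGAA, which reads alike on both strands and was found in 8.30% of them. These motifs were chosen after the expression values were seen, a match is a description and not a bound site, and a missing match says only that these letters are not in the window. The promoters of 3 are shown because they belong to receptors with different patterns below: Siglece and Lair1, where both knockouts lay above both controls, and Cd33, which differed between library numbers. They are the windows at chr7:43660112-43660411, chr7:4063155-4063454 and chr7:43533122-43533421, all on the minus strand, and are written 5′ to 3′ with GAGGAA, or TTCCTC for the other strand, in capitals.
Siglece: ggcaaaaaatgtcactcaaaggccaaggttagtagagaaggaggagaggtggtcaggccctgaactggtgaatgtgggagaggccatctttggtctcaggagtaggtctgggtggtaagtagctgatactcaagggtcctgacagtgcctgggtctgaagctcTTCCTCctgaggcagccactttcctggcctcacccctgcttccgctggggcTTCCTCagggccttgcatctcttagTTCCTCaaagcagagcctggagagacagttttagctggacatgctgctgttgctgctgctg
Lair1: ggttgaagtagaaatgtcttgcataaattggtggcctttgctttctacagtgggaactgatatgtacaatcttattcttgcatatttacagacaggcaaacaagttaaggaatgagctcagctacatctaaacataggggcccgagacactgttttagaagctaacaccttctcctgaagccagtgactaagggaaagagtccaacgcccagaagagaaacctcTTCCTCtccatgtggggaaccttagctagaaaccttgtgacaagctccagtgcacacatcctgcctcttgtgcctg
Cd33: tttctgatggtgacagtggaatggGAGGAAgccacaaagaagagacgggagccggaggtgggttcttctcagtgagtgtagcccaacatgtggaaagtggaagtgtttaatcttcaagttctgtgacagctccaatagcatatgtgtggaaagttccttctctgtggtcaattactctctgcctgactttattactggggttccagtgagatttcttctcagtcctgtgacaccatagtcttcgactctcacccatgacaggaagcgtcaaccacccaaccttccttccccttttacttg
Siglece had 3 copies, which began 87, 36 and 11 bases before the start of transcription. Lair1 had 1, which began 26 bases before it. Cd33 had 1, which began 226 bases before it.

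Measured per length, the receptors spanned a wide range. Siglece had the highest mean, 189 ± 55.4 FPKM (SD over the 4 libraries), followed by Pirb at 166 ± 17.2 and Sirpa at 134 ± 7.47 FPKM. The ranges of Siglece and Pirb overlapped, as did those of Pirb and Sirpa. Lilrb4a averaged 80.6 ± 10.8 FPKM and Siglec1 72.3 ± 20.1 FPKM, and these ranges overlapped too, while the lowest Sirpa value lay above the highest of Lilrb4a. Cd200r1 (26.7 ± 3.23 FPKM), Cd33 (26.1 ± 18.9 FPKM) and Cd300a (20.7 ± 5.92 FPKM) formed an overlapping lower tier, all below the lowest Siglec1 value of 48.6 FPKM. Lair1 averaged 6.58 ± 0.892 FPKM, and Siglecf 0.430 ± 0.305 FPKM. Cd33 had a range from 6.24 to 48.2 FPKM, wide beside its neighbours in this order.

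**Figure D1:**
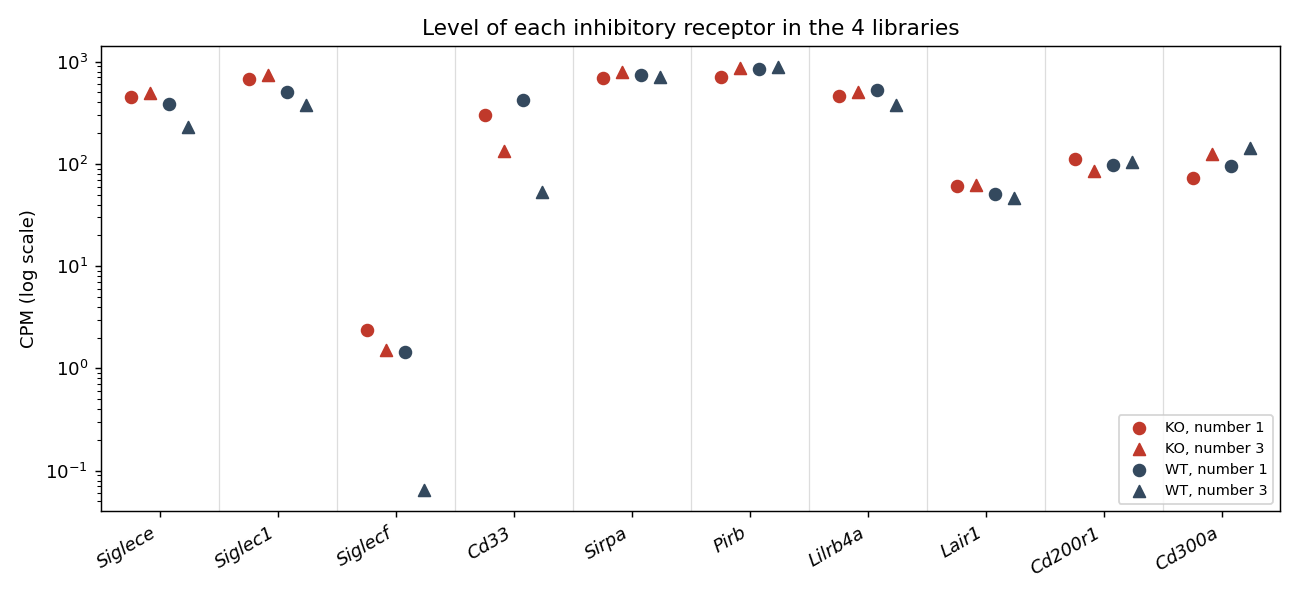
Level of each receptor in CPM (log axis) in KO1, KO3, WT1 and WT3; colour gives the genotype and marker shape the library number, 1 point per library. Siglece, Siglec1 and Lair1 have both knockouts above both controls, as does Siglecf at low counts, with KO3 close to WT1. Cd33 has its number 3 libraries, at 134 and 53.2 CPM, below its number 1 libraries, at 298 and 421 CPM.

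Between knockouts and controls, Siglec1 and Siglece stood 1.59- and 1.54-fold higher in the knockouts and Lair1 1.26-fold higher, each with both knockouts above both controls, but no receptor passed the test. The comparison used the quasi-likelihood test of edgeR with Benjamini-Hochberg adjustment over 17260 genes, and all 10 receptors had enough counts to enter it. It called 0 of the 10 receptors, with 1 (Siglec1) at an unadjusted p under 0.05, and 0% of all genes (2.27% at an unadjusted p under 0.05); the adjusted p was 1 for each receptor. DESeq2 also called 0 of the 10, with 1 at an unadjusted p under 0.05, against 0.381% of genes called (2.42% at an unadjusted p under 0.05). In 4 of the 10 receptors both knockouts lay above both controls, where 13.1% of all tested genes did. The case not named above was Siglecf, where KO3 at 1.503 CPM barely exceeded WT1 at 1.45 CPM and WT3 had 4 counts. In 0 of the 10 did both knockouts lie below, where 13.4% of all tested genes did (26.5% in either direction). The median log2 fold change over the 10 was 0.06, beside 0.00 over all genes, with 6 receptors above 0 and 4 below. That median was 0.395 without WT1, 0.227 without KO3, 0.149 without KO1 and 0.027 without WT3. The controls were not alike in these receptors: WT3 was the lowest of the 4 libraries for 6 of the 10. How often WT3 was lowest over all tested genes was not counted, so this is not shown to be particular to the receptors. Gene positions are given as deposited.

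Siglec1 (ENSMUSG00000027322, chromosome 2, 131069220 to 131086765, minus strand) encodes a long lectin by which macrophages hold sialylated cells, particles and viruses, and is known as a gene induced by interferon. It stood at 675 and 738 CPM in KO1 and KO3 and at 507 and 380.2 CPM in WT1 and WT3. The groups did not overlap, and the difference was larger within number 3 than within number 1. In edgeR the log2 fold change came to 0.67 ± 0.21 (SE, n = 2 each; unadjusted p = 0.0291), and inside numbers 1 and 3 the differences were 0.41 and 0.96. Whichever library was left out, it lay between 0.483 and 0.902. Genes induced by interferon lay in the same direction: of a list of 12, all 12 had both knockouts above both controls (13.1% of all tested genes), with a median log2 fold change of 1.46, 0 called by edgeR (11 at an unadjusted p under 0.05, against 2.27% of all genes) and 7 called by DESeq2 (0.381% of all genes). That pattern was known from earlier results of these data, and its part in the level of Siglec1 was not tested. In this list Isg15, which is conjugated to proteins like ubiquitin, stood at 49.2 and 120.0 CPM in KO1 and KO3 and at 24.5 and 29.6 CPM in WT1 and WT3, and Ifit3, an antiviral protein, at 93.4 and 172 against 41.6 and 38.1 CPM.

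The genes closest to Siglec1 in shape over the 4 libraries, by the Euclidean distance between log2 CPM profiles centred on their means, were Bcl2a1a, Nudt19 and Gm43860, at distances of 0.0460, 0.0612 and 0.0756. Bcl2a1a, a survival gene of the BCL2 family with near-identical copies whose reads may be shared, stood at 20.5 and 23.3 CPM in KO1 and KO3 and at 15.4 and 11.7 CPM in WT1 and WT3. Over 4 libraries and 17260 genes such closeness is a description.

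Siglece (ENSMUSG00000030474, chromosome 7, 43651070 to 43660161, minus strand) encodes an inhibitory Siglec with ITIMs, the main one of mouse neutrophils and macrophages. It stood at 451 and 494 CPM in KO1 and KO3 and at 385 and 229 CPM in WT1 and WT3. Both knockouts lay above both controls, and WT3 stood well below WT1. Its log2 fold change in edgeR came to 0.62 ± 0.29 (SE, n = 2 each; unadjusted p = 0.0929), and inside numbers 1 and 3 the differences were 0.23 and 1.11. Without WT3 the log2 fold change was 0.300, and without WT1 it was 1.053.

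Siglecf (ENSMUSG00000039013, chromosome 7, 43351341 to 43359531, plus strand) encodes the Siglec known from eosinophils and alveolar macrophages. Its level was low, with estimated counts of 148 and 119 in KO1 and KO3 and of 79 and 4 in WT1 and WT3, or 2.37 and 1.503 CPM against 1.45 and 0.0646 CPM. The value of WT3 lay below 0.194 CPM, the level of 12 counts in that library. The knockouts and WT1 were close to each other and WT3 stood apart, so the pooled log2 fold change of 1.35 ± 1.32 (SE, n = 2 each; edgeR unadjusted p = 0.358) was 0.414 without WT3 and 4.87 without WT1. Within number 1 the difference was 0.69.

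Cd33 (ENSMUSG00000004609, chromosome 7, 43524216 to 43533171, minus strand), the Siglec that gives the CD33-related branch of the family its name, had its gap between library numbers, with opposite directions between genotypes in the 2 numbers. It stood at 298 and 134 CPM in KO1 and KO3 and at 421 and 53.2 CPM in WT1 and WT3. The 2 extreme values were both controls. Between genotypes edgeR gave a log2 fold change of -0.14 ± 1.00 (SE, n = 2 each; unadjusted p = 0.898), with -0.50 inside number 1 and 1.33 inside number 3. It turned to 2.02 without WT1 and to 0.330 without KO3, and was -0.961 without WT3 and -0.808 without KO1.

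Among the other Siglecs of a list of 5, 2 had enough counts for the test, and both had both knockouts above both controls, where 13.1% of all tested genes did. Cd22, an inhibitory Siglec best known from B cells, stood at 23.9 and 34.3 CPM in KO1 and KO3 and at 19.2 and 18.1 CPM in WT1 and WT3 (log2 fold change 0.64 ± 0.25, SE, n = 2 each; edgeR unadjusted p = 0.0521 and adjusted p = 1), with 0.32 inside number 1 and 0.92 inside number 3. Mag, a Siglec of myelin, stood at 8.38 and 8.34 CPM against 6.28 and 6.36 CPM, with a log2 fold change of 0.40 ± 0.25 (SE), 0.41 inside number 1 and 0.39 inside number 3. The other members of this list stayed at or below 0.597 CPM in every library.

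Lair1 (ENSMUSG00000055541, chromosome 7, 4003402 to 4063204, minus strand) encodes an ITIM receptor for collagens. It stood at 60.4 and 62.03 CPM in KO1 and KO3 and at 51.03 and 45.9 CPM in WT1 and WT3. The groups did not overlap and each was tight. By edgeR it differed by 0.34 ± 0.15 on the log2 scale (SE, n = 2 each; unadjusted p = 0.0823), by 0.24 inside number 1 and by 0.43 inside number 3, and between 0.267 and 0.423 with any 1 library left out.

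Sirpa (ENSMUSG00000037902, chromosome 2, 129592835 to 129632228, plus strand) encodes the ITIM receptor that reads CD47 and restrains phagocytosis. It stood at 688 and 792 CPM in KO1 and KO3 and at 745 and 708 CPM in WT1 and WT3. Both controls lay between the knockouts. The edgeR log2 fold change was 0.03 ± 0.18 (SE, n = 2 each; unadjusted p = 0.887), with -0.11 inside number 1 and 0.16 inside number 3, and it ranged from -0.079 to 0.141 with any 1 library left out. The gene of its ligand, Cd47, named after its values were seen, stood at 266 and 261 CPM against 286 and 265 CPM.

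Pirb (ENSMUSG00000058818, chromosome 7, 3711409 to 3720391, minus strand) encodes PIR-B, an ITIM receptor for MHC class I. It stood at 701 and 863 CPM in KO1 and KO3 and at 851.5 and 885 CPM in WT1 and WT3, with KO1 lowest and KO3 between the controls. On the log2 scale edgeR gave -0.15 ± 0.19 (SE, n = 2 each; unadjusted p = 0.471), with -0.28 inside number 1 and -0.04 inside number 3, and 0.008 without KO1.

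Lilrb4a (ENSMUSG00000112148, chromosome 10, 51490956 to 51496611, plus strand) encodes gp49B, an ITIM receptor of myeloid and mast cells. It stood at 465 and 502 CPM in KO1 and KO3 and at 533 and 377 CPM in WT1 and WT3, so that the controls enclosed the knockouts. The fold change by edgeR was 0.09 ± 0.23 on the log2 scale (SE, n = 2 each; unadjusted p = 0.720), with -0.20 inside number 1 and 0.41 inside number 3, and it turned to -0.138 without WT3.

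Cd200r1 (ENSMUSG00000022667, chromosome 16, 44765736 to 44794978, plus strand), which encodes the receptor for CD200, stood at 111 and 84.55 CPM in KO1 and KO3 and at 97.5 and 105 CPM in WT1 and WT3. The knockouts enclosed the controls. Here edgeR gave a log2 fold change of -0.05 ± 0.19 (SE, n = 2 each; unadjusted p = 0.819), with 0.19 inside number 1 and -0.31 inside number 3. It turned to 0.137 without KO3 and to 0.008 without WT3.

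Cd300a (ENSMUSG00000034652, chromosome 11, 114890041 to 114904654, plus strand), whose ITIM receptor binds phosphatidylserine and phosphatidylethanolamine, stood at 73.4 and 124 CPM in KO1 and KO3 and at 95.8 and 143 CPM in WT1 and WT3. Within each number the knockout was the lower library. Its log2 fold change by edgeR was -0.27 ± 0.34 (SE, n = 2 each; unadjusted p = 0.461), with -0.39 inside number 1 and -0.20 inside number 3, and number 3 stood higher in both genotypes, so the groups overlapped. It turned to 0.070 without KO1 and to 0.045 without WT3, and was -0.701 without KO3. The direction was the same within both numbers for 6 of the 10 receptors, where 52.7% of all tested genes had the same sign in both.

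**Figure D2:**
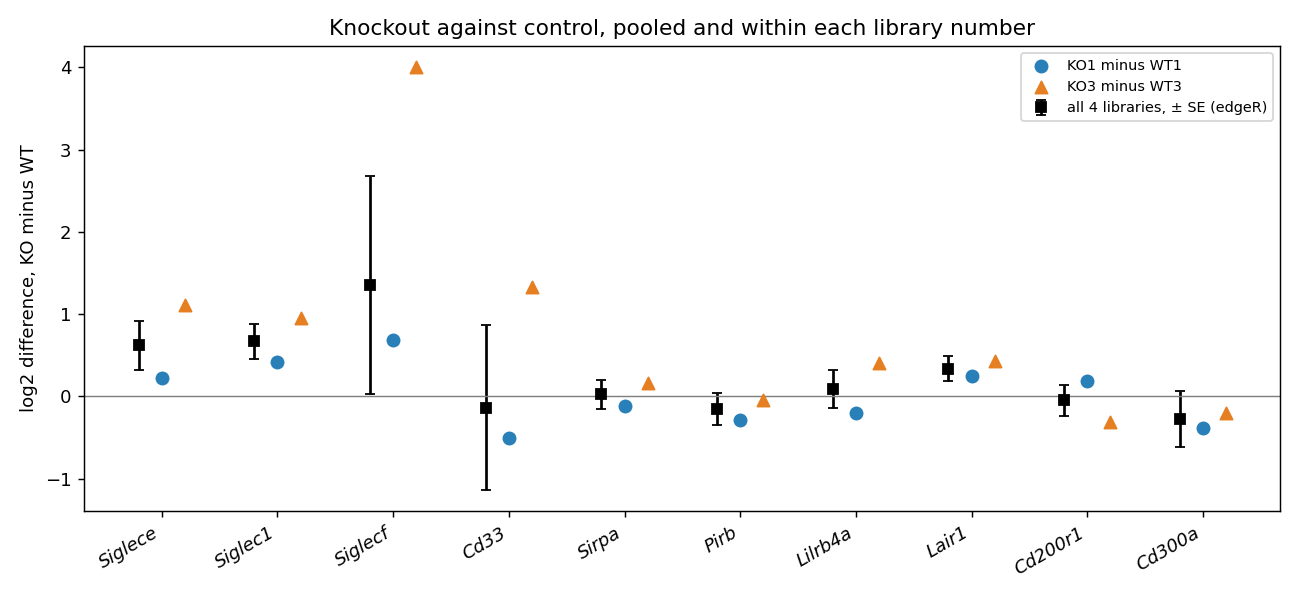
Log2 difference of KO minus WT for each receptor: squares show the edgeR fit of all 4 libraries with its SE, circles KO1 minus WT1 and triangles KO3 minus WT3. Siglec1, Siglece, Siglecf and Lair1 lie above 0 in all 3 values, the number 3 value of Siglecf resting on 4 counts in WT3, while Cd33 lies at -0.50 within number 1 and at 1.33 within number 3.

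Between library numbers, Cd33 stood lower and Cd300a higher in number 3. Cd33 had 134 and 53.2 CPM in KO3 and WT3, against 298 and 421 CPM in KO1 and WT1. Its log2 difference of number 3 minus number 1 was -1.94 ± 0.47 (SE, n = 2 per number; edgeR unadjusted p = 0.00933, adjusted p = 0.134; DESeq2 adjusted p = 4.94e-05), which is 3.84-fold lower in number 3. The difference was -1.16 among the knockouts and -2.98 among the controls. Cd300a had 124 and 143 CPM in KO3 and WT3, against 73.4 and 95.8 CPM in KO1 and WT1. Its log2 difference was 0.65 ± 0.17 (SE, n = 2 per number; edgeR unadjusted p = 0.0133, adjusted p = 0.153; DESeq2 adjusted p = 0.0303), with 0.75 among the knockouts and 0.57 among the controls.

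In this comparison edgeR called 0 of the 10 receptors between numbers (1.03% of all genes), with 2 at an unadjusted p under 0.05 (18.2% of all genes), and DESeq2 called 2 (8.33% of all genes). Both number 3 libraries lay above both number 1 libraries for 2 receptors, Cd300a and Pirb (26.2% of all genes), and below them for 1, Cd33 (25.2% of all genes). In all, the numbers did not overlap for 3 of the 10 receptors, a smaller share than the 51.4% of all genes. For Siglece, Siglec1, Sirpa, Lilrb4a and Lair1 number 3 was the higher library among the knockouts and the lower one among the controls: Siglece differed by 0.13 in the knockouts and by -0.75 in the controls, and Siglec1 by 0.13 and -0.41.

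**Figure D3:**
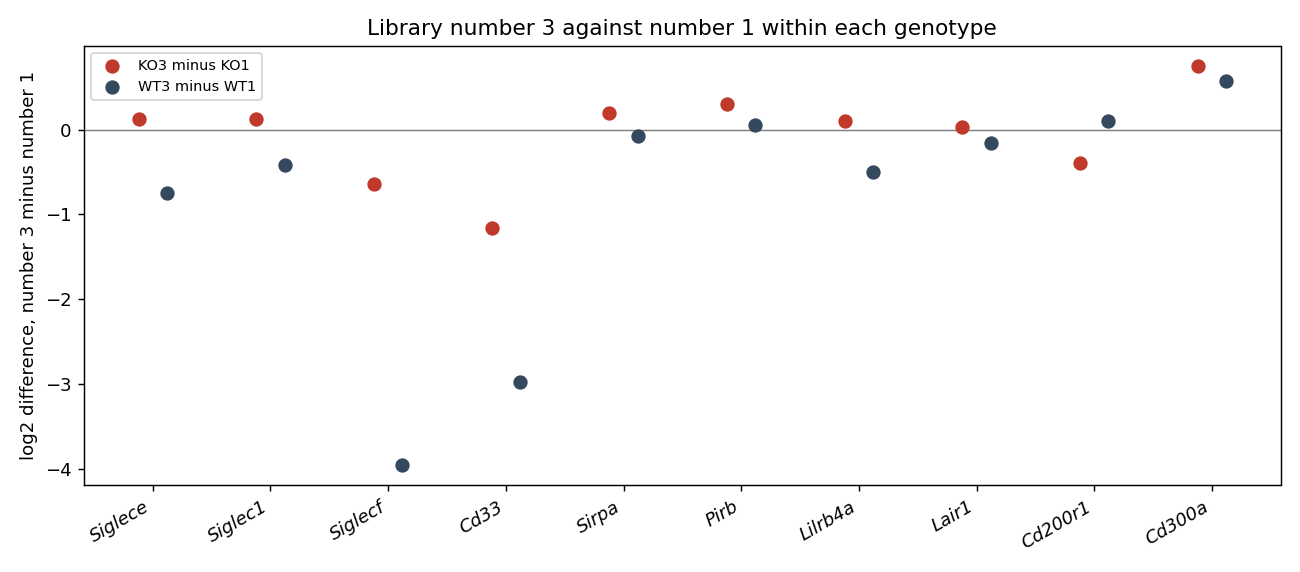
Log2 difference of number 3 minus number 1 for each receptor, with KO3 minus KO1 in red and WT3 minus WT1 in dark blue. Cd33 lies below 0 in both genotypes (-1.16 and -2.98), as does Siglecf, and Cd300a above 0 in both (0.75 and 0.57).

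Several of the receptors have close relatives, and reads of near-identical stretches may be split between them. Of all stretches of 150 bases, the length of 1 read, in the coding transcripts of each receptor (GENCODE M21), 0 occurred in the same orientation in a transcript of another gene for 8 of the 10 receptors. For Pirb 16.9% did, mostly shared with Gm14548 (12.4%) and Pira2 (10.5%), and for Lilrb4a 85.2% did. The shared stretches of Lilrb4a lay in Gm49339, a gene annotated on the same strand that reaches from the start of the neighbouring gene Lilr4b into Lilrb4a, and Lilr4b itself held 5.61%. The counts of Lilrb4a and Pirb are therefore uncertain, and the sources used here do not say how multiply matching reads were handled.

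Lilr4b stood at 168 and 196 CPM in KO1 and KO3 and at 242 and 199 CPM in WT1 and WT3, and Gm49339 at 81.7 and 36.8 CPM against 62.5 and 91.7 CPM. Lilrb4a and Lilr4b together gave 634 and 698 CPM against 775 and 576 CPM, and with Gm49339 715 and 735 CPM against 838 and 668 CPM. Either way the controls enclosed the knockouts, as for Lilrb4a alone, and the log2 fold change turned to -0.02 and to -0.05. Pirb and its 4 listed relatives in the table (Gm14548, Gm15922, Pira2 and Gm15448) summed to 1090 and 1110 CPM in KO1 and KO3 and to 1235 and 1182 CPM in WT1 and WT3, so both knockouts lay below both controls in the sum (as in 13.4% of all tested genes), with a log2 fold change of -0.14. Of these, Gm14548 followed the library number, at 71.0 and 79.4 CPM in KO3 and WT3 against 173.5 and 184 CPM in KO1 and WT1 (edgeR adjusted p = 0.0342). Its log2 difference between numbers was -1.25. Gm15922, Pira2 and Gm15448 had log2 fold changes between genotypes of -0.13, -0.05 and 0.01. Lilra6, which held 2.5% of the Pirb stretches, was not in the sum. It stood at 144.7 and 54.2 CPM in KO1 and KO3 and at 153.1 and 59.8 CPM in WT1 and WT3. Sirpa with 5 related genes (Gm5150, Gm9733, Sirpb1a, Sirpb1b and Sirpb1c) summed to 1116 and 1223 CPM against 1237 and 1072 CPM, and Cd200r1 with its 3 relatives, of which Cd200r4 held nearly all counts and Cd200r2 and Cd200r3 stayed at or below 0.192 CPM, to 137 and 101.5 CPM against 127.5 and 129 CPM.

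**Figure D4:**
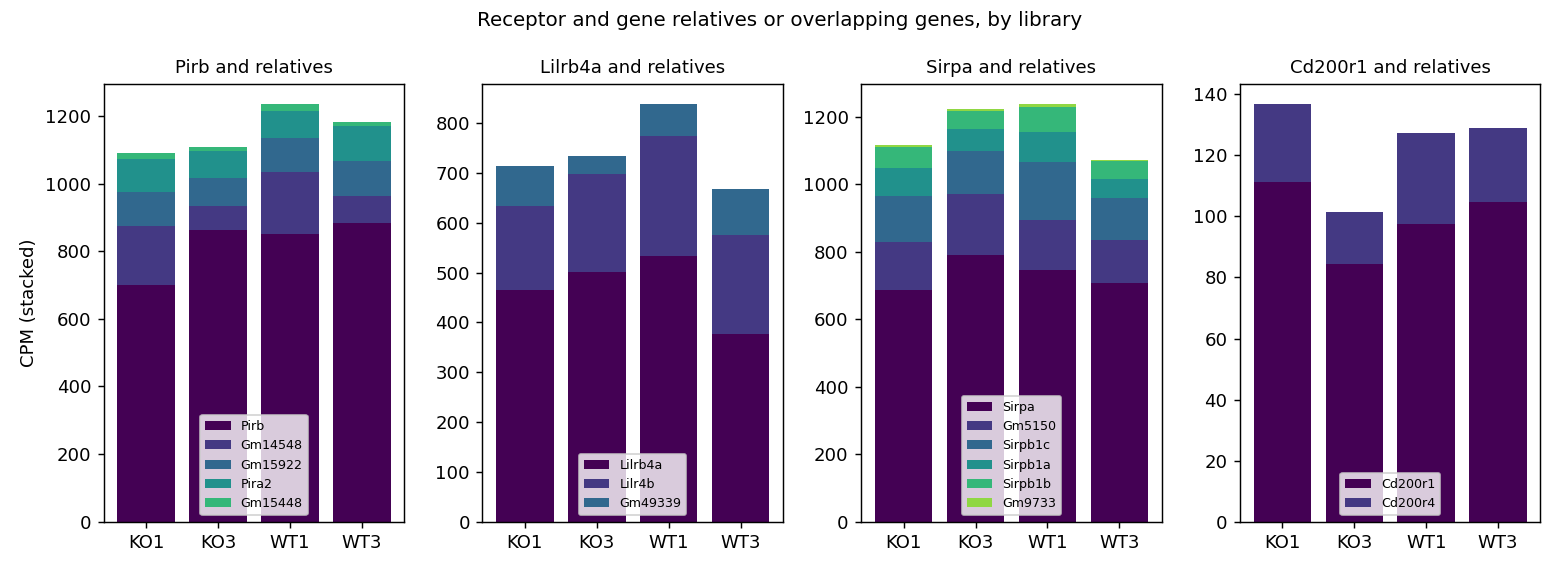
Stacked CPM of Pirb, Lilrb4a, Sirpa and Cd200r1 with their listed relatives or overlapping genes in KO1, KO3, WT1 and WT3. The Pirb family sums to 1090 and 1110 CPM in the knockouts, below 1235 and 1182 CPM in the controls, and the Lilrb4a bars of the controls enclose those of the knockouts.

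Since Mettl3 writes m6A, mostly within the sequence context whose best-known form is GGACT in the DNA alphabet, the motif was counted in the longest coding transcript of each receptor (GENCODE M21). Lilrb4a had 3.62 copies per kilobase, above 98.9% of 21901 protein-coding genes, where the median was 1.01. Pirb (1.83), Cd33 (1.75), Siglece (1.62) and Cd200r1 (1.59) also lay above the median, as did Cd300a (1.29) and Siglec1 (1.25), while Siglecf (0.77), Lair1 (0.44) and Sirpa (0.25) lay below it. Of the receptors with both knockouts above both controls, Siglece lay at 1.62, Siglec1 at 1.25, Siglecf at 0.77 and Lair1 at 0.44. Whether the density goes with the fold change was not tested. The count is of letters alone; m6A was not measured here.

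No gene of the partner and pathway lists around the receptors passed the test between genotypes, and neither did any other of the 17260 tested genes. Over all genes edgeR called 0% (2.27% at an unadjusted p under 0.05) and DESeq2 0.381%. With such shares, 0 called in a short list says little about that list. Of 12 other inhibitory receptors 11 were tested, with 7 above 0, 4 below, 0 called by edgeR (0 at an unadjusted p under 0.05) or DESeq2, and a median log2 fold change of 0.16 that turned to -0.031 without WT3 and to -0.039 without KO3. The list includes Lilr4b, the relative of Lilrb4a, at -0.275. Whether Lilr4b is itself inhibitory was not checked here. Clec4a2, an ITIM lectin, stood at 413 and 394 CPM in KO1 and KO3 and at 437 and 412 CPM in WT1 and WT3, and Cd72 at 285 and 426 against 260.1 and 375 CPM. Of 23 listed activating counterparts 14 were tested, with 5 above 0, 9 below, 0 called by edgeR (1 at an unadjusted p under 0.05) or DESeq2, and a median of -0.13 that turned to 0.071 without WT1. Cd300c2 stood at 210.1 and 258 CPM in the knockouts and at 244 and 318 CPM in the controls, and Cd300ld at 179 and 216 against 223 and 293.5 CPM. The gene at an unadjusted p under 0.05 was Trem3, chosen after its value was seen, at 9.42 and 10.4 CPM against 5.28 and 4.18 CPM.

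Of the 3 adaptor genes 0 were called by edgeR (0 at an unadjusted p under 0.05) or DESeq2. Over all genes these shares were 0%, 2.27% and 0.381%, for this list and the next. The adaptor genes Tyrobp (DAP12) and Fcer1g, through which activating partners signal, stood at 518 and 568 CPM in KO1 and KO3 against 560 and 637 CPM in WT1 and WT3, and at 425 and 649 against 502 and 495 CPM. Of 15 ITIM kinases, phosphatases and other effectors, 11 lay above 0 and 4 below, with a median of 0.05 and 0 called by edgeR (0 at an unadjusted p under 0.05) or DESeq2. That median was 0.102 without KO1 and turned to -0.007 without WT1. Ptpn6 stood at 513 and 520.3 CPM in the knockouts and at 399.9 and 522 CPM in the controls.

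For the lists that follow, the shares called over all genes were 0% by edgeR (2.27% at an unadjusted p under 0.05) and 0.381% by DESeq2. Of 18 ligand genes 15 were tested, 7 above 0 and 8 below, with a median of -0.06 and 0 called by edgeR (0 at an unadjusted p under 0.05) or DESeq2. That median turned to 0.417 without WT3 and was -0.255 without WT1 and -0.142 without KO3. C1qa and C1qb, whose product C1q binds LAIR1 in humans, had log2 differences of 0.55 and 1.45 within number 1 and of -0.28 and -0.56 within number 3. The genes that make, modify or remove sialic acid had 10 tested of 13, with 8 above 0, a median log2 fold change of 0.185 and 0 called by edgeR (0 at an unadjusted p under 0.05) or DESeq2. Both knockouts lay above both controls in 5 of these 10, and in 13.1% of all tested genes. Neu1, a sialidase, stood at 137 and 125 CPM in KO1 and KO3 and at 130.2 and 111.5 CPM in WT1 and WT3. Casd1, which acetylates sialic acid, stood at 38.2 and 58.3 against 44.1 and 58.9 CPM. Of 20 sialyltransferases 13 were tested, with 8 above 0, a median of 0.10 and 0 called by edgeR (0 at an unadjusted p under 0.05) or DESeq2. That median was 0.212 without WT1, 0.032 without KO3 and -0.001 without WT3. St3gal1 stood at 150.5 and 201 CPM against 154 and 172 CPM, and St3gal5, the GM3 synthase, at 22.2 and 68.3 against 17.0 and 70.4 CPM. St6gal1, which adds the linkage that CD22 reads, was chosen after its values were seen; it had 53.0 and 35.2 CPM in the knockouts and 75.5 and 57.8 CPM in the controls, with a log2 fold change of -0.60 ± 0.27 (SE, n = 2 each; edgeR unadjusted p = 0.0858 and adjusted p = 1), -0.51 inside number 1 and -0.72 inside number 3.

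**Figure D5:**
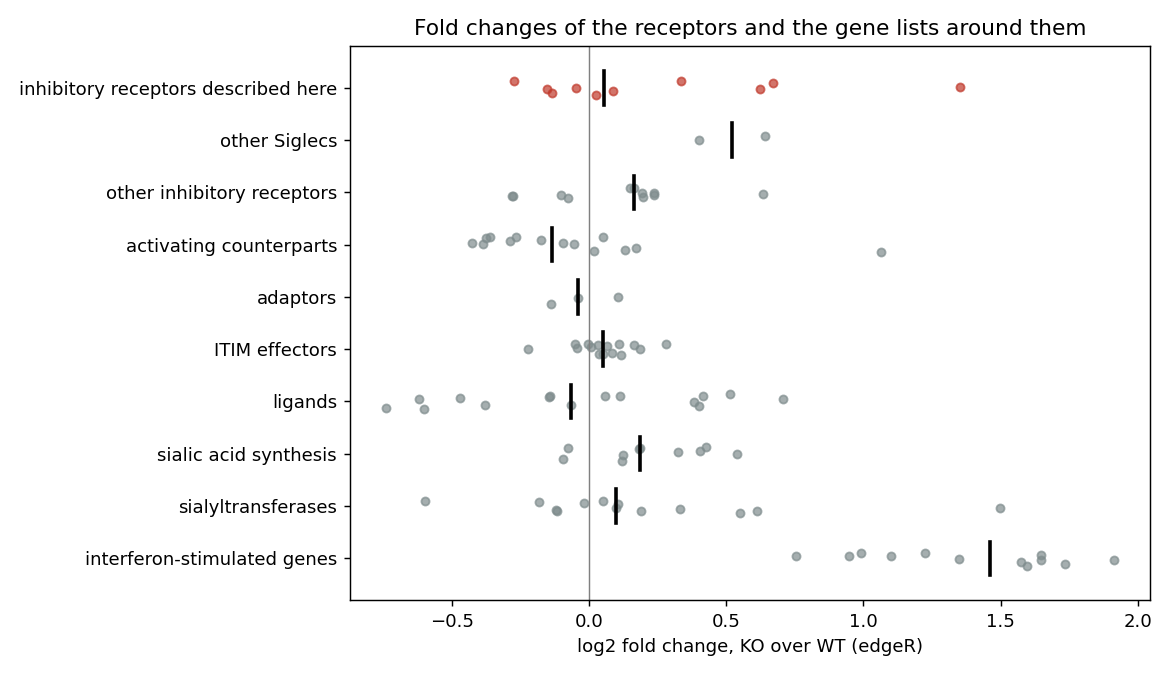
Log2 fold change (KO over WT, edgeR) of each tested gene in the receptor list and in the gene lists around it, 1 point per gene, with the median as a black bar. The receptors have a median of 0.06, the activating counterparts one of -0.13 and the interferon-stimulated genes one of 1.46.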

How the data were processed

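RNA-seq of 4 libraries was deposited by the authors as 1 table of 55401 genes. Per the submitters' processing notes, cutadapt 1.9, HISAT2 2.0.4 and StringTie 1.3.4d were used, with edgeR and DESeq2 also named; for the genome build, the strand setting and multiply matching reads no source was at hand (not given in the sources used here). Whole, unnormalized estimated counts were deposited by the authors; between 38.7% and 39.5% of counts from 1 to 24 were multiples of 4, so how many fragments stand behind a count is unknown. The FPKM values were also deposited by the authors, an FPKM of 0 being entered as 0.0001. The table's other 4 value columns match no sample by name and stayed out of every step. Start and end equalled those in GENCODE M21 (GRCm38) for 94.2% of identifiers found in both, and for 9 of the 10 receptors (Cd33 did not); coordinates in the text are those of the deposited table, and promoters are RefSeq's on GRCm38.p6.

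Counts were tested in R 4.3.3 by edgeR 4.0.16's quasi-likelihood test (TMM, filterByExpr, two-sided, Benjamini-Hochberg over 17260 genes, threshold 0.05), without a block, over 2 KO and 2 WT libraries; number 3 was compared with number 1 in the same way. Each SE is the absolute log2 fold change divided by the square root of its F statistic. Within-number differences use log2 CPM with a prior count of 2 and have no replicate. Alternatives were DESeq2 1.42.0, other scalings and filters, a replicate block, limma 3.58.1 on FPKM, counts divided by 4, summed relatives and each library left out in turn; the sum with Gm49339 and the omissions in the number comparison were added with the values in view. Simulated data served to test the scripts. The receptors and gene lists were chosen with earlier results of these data known. All 10 receptors are named; of each list, the 2 members with the highest mean FPKM, since none passed edgeR, the listed relatives with a count, and the 3 genes closest to the receptor with the smallest p; other names are marked or serve as checks. The labels call the libraries biological replicates without naming litters or days. The p-values set each difference against the spread between these libraries only, estimated with information shared across genes. Without a block, differences between numbers are part of that spread in the genotype test. Floors cover counting error only. Some genes of the lists are not reported here.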

Additional observations from a re-analysis of the deposited data

Results flagged for a closer look

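For 4 receptors the knockout lay on opposite sides of the control in the libraries numbered 1 and 3. The difference between numbers was not tested, since each number holds 1 library per genotype. For Cd33 the KO minus WT difference within number 3 exceeded that within number 1 by 1.83 on the log2 scale. The same quantity was 0.61 for Lilrb4a, 0.28 for Sirpa and -0.50 for Cd200r1. Of all tested genes, 52.7% had the same sign within both numbers.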

How the results depend on the processing

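No receptor was called between KO and WT under any alternative that was run (edgeR with other scalings, filters, test forms or the block, DESeq2 with and without the block, limma on FPKM, and each library left out). The smallest adjusted p was 0.0723, for Siglec1 by DESeq2 with the replicate block. Over all genes edgeR without and with the block called 0, DESeq2 73 and DESeq2 with the replicate block 170. Number 3 against number 1 gave 177 genes by edgeR, 122 with the genotype as a block, 1557 by DESeq2, and 1 (without KO1) to 87 (without KO3) with 1 library left out; DESeq2 called 2 receptors there. Deviations from the group means correlated at 0.419 between libraries of the same number over 17260 genes; the labels do not say what a number marks, so the samples share a number and were not treated as paired.

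The log2 fold change of Cd33 turned to 0.412 with the replicate block in edgeR and to 0.419 with it in DESeq2. In limma it turned to 0.351 on log2(FPKM + 1), with and without a filter, and to 0.401 on log2(FPKM + 0.1). The cause was not tested. For Lilrb4a the log2 fold change turned to -0.021 when summed with Lilr4b and to -0.054 with Gm49339 as well. When 1 library is left out, the single one remaining in its group is taken to vary as much as the full group does. Log2 fold changes between KO and WT then spanned -0.961 to 2.023 for Cd33, -0.079 to 0.141 for Sirpa and -0.138 to 0.367 for Lilrb4a. They spanned -0.241 to 0.137 for Cd200r1, -0.701 to 0.070 for Cd300a and -0.310 to 0.008 for Pirb. Between numbers they spanned -0.866 to 0.247 for Siglece, -0.634 to 0.327 for Siglec1, -0.403 to 0.013 for Lilrb4a, -0.278 to 0.160 for Lair1, -0.014 to 0.151 for Sirpa and -0.297 to 0.006 for Cd200r1. Siglecf, with 4 counts in WT3, had log2 fold changes from 0.402 to 2.44 between KO and WT over the settings that kept all libraries. Log2 fold changes of Siglec1, Siglece, Siglecf and Lair1 between KO and WT stayed above 0 in every alternative run. These are the receptors with both knockouts above both controls, so leaving out 1 library or rescaling could hardly turn their sign. The constant sign is therefore no added support for a difference. Siglecf was filtered out of 2 of the 3 FPKM fits. With the replicate block the median of the 10 receptors between KO and WT was 0.224 in edgeR and 0.228 in DESeq2, beside 0.057 without it.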

Other observations

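Several related receptors and partners, chosen after their values were seen, differed more between library numbers than between genotypes. Such differences were common: the numbers did not overlap for 51.4% of all tested genes. Between numbers edgeR called 1.03% of all genes and DESeq2 8.33%, so the pattern is not shown to be particular to these genes. Trem1, an activating receptor that amplifies inflammation, stood at 3.36 and 5.56 CPM in KO3 and WT3, against 22.2 and 28.7 CPM in KO1 and WT1 (edgeR adjusted p = 0.0497). Cd300lf, an inhibitory relative of Cd300a, stood at 10.6 and 17.9 CPM against 60.2 and 57.9 CPM (edgeR adjusted p = 0.0569, DESeq2 adjusted p = 1.59e-10). Fcgr2b, the inhibitory Fc receptor, had 326 and 119.7 CPM in KO3 and WT3 and 585 and 468 CPM in KO1 and WT1, with WT3 lowest as for Cd33 (edgeR adjusted p = 0.274). Cd200, the gene of the CD200R1 ligand, stood at 24.5 and 18.4 CPM in KO3 and WT3 and at 2.43 and 2.28 CPM in KO1 and WT1 (edgeR adjusted p = 0.0194). Among sialyltransferases, St3gal5 stood at 68.3 and 70.4 CPM in KO3 and WT3 and at 22.2 and 17.0 CPM in KO1 and WT1, and St8sia4, a polysialyltransferase, at 41.8 and 43.0 against 96.4 and 107 CPM (edgeR adjusted p = 0.0326 for each). Whether these differences follow sex, culture or animal cannot be told apart in this design.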
